A study of Mus musculus with 6 samples.

Results

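Histone and DNA modifying enzymes add or remove the chemical marks that set how readily a stretch of chromatin is transcribed. This report covers the genes whose symbols start with Kdm, Hdac, Sirt, Kat, Setd, Dnmt or Tet followed by a digit. The symbol decided membership and no expression value did. There were 52 such genes among 22166 genes listed once, with a usable value in all 6 libraries, and none that matched was lost to either requirement. Of the 52, 47 reached 2 FPKM in at least 2 libraries and entered the tests. FPKM counts sequenced fragments relative to transcript length in kilobases and to the depth of the library.

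The cells were peritoneal macrophages, the phagocytes that live in the abdominal cavity, of C57Bl/6 background. They came from wild-type mice (WT) or from mice labelled miR-221/222 -/Y (KO), in which the X-linked genes of the microRNAs miR-221 and miR-222 are deleted. All cells were kept in DMEM with FBS and antibiotics. Naive cells were untreated, LPS cells had 4 h of lipopolysaccharide at 1000 ng/ml, and tolerized cells had a first exposure of 15 h at 10 ng/ml, a wash, 2 h of rest and then the same 4 h at 1000 ng/ml. Each of the 6 combinations of genotype and condition was 1 library. The series' text speaks of triplicates, and whether RNA of several mice was pooled is not given in the sources used here. The age of the mice, the strain history of the deletion and whether it acts in macrophages only are not given there either.

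Lipopolysaccharide, a component of the outer membrane of Gram-negative bacteria, starts an inflammatory gene programme in macrophages, and a weak first dose leaves many of those genes less responsive to a second one. Acetyltransferases (Kat) loosen chromatin by acetylating histone lysines, while histone deacetylases (Hdac) and the NAD-dependent sirtuins (Sirt) take the acetyl group off again. SET domain proteins (Setd) methylate lysines and the Kdm demethylases reverse this. Dnmt enzymes methylate cytosines in DNA, and Tet dioxygenases oxidise that methyl group as a step towards its removal. Several of these enzymes, Kdm6b and Tet2 among them, are known as part of the macrophage response to LPS.

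The interval widths in the deposited tables implied 17.5 to 24.9 M fragments a library, and a gene at 10 FPKM or more had a median interval half-width of 5.03% to 5.97%, which covers counting error only. Macrophage markers were abundant in all libraries but not level between them. The 11 matched pan-macrophage markers, mostly Lyz2 (lysozyme), summed to 54370, 26160 and 18620 FPKM across the WT libraries (naive, then LPS, then tolerized), and the KO sums were 47200, 22920 and 12750 FPKM. Of these 11, 2 rose and 5 fell from naive to tolerized cells, beside 7.41% and 19.7% of all genes. After rescaling 3 rose and 5 fell, beside 9.47% and 11.4%. Markers of large peritoneal macrophages summed to 687, 888 and 492 FPKM in WT and to 745, 1102 and 614 FPKM in KO. Of 10 tested, 1 rose and 3 fell with LPS, beside 8.74% and 54.4% of all genes. After rescaling 3 rose and 0 fell, beside 22.6% and 24.2%. From LPS to tolerized cells 1 rose and 3 fell (Gata6, Timd4 and Alox15), beside 36.8% and 4.32% of all genes. After rescaling 0 rose and the same 3 fell, beside 8.86% and 9.28%. From naive to tolerized cells 0 rose and 4 fell, beside 7.41% and 19.7% of all genes. After rescaling 0 rose and 3 fell, beside 9.47% and 11.4%. Gata6, their defining factor, was 13.1, 6.15 and 1.07 FPKM in WT and 4.88, 2.88 and 0.58 FPKM in KO. A list of 10 B cell markers summed to 801 FPKM in WT naive, 325 in WT LPS and 507 in WT tolerized cells, and the KO sums were 598, 285 and 634 FPKM, so the B cell sum moved with many of the enzymes below. The T and NK cell list summed to between 13.7 and 42.6 FPKM, and the dendritic cell list to 39.9 FPKM in WT naive cells against 5.06 FPKM in KO naive cells, with Flt3, Clec9a and Siglech under 2 FPKM in every library. The neutrophil list summed to between 132 and 359.7 FPKM, with Ngp and S100a9 at 0 in all 6 libraries. Mast cell and eosinophil markers summed to between 55.8 and 116 FPKM and mesothelial and fibroblast markers to between 1.27 and 7.82 FPKM. The part of these other cells in the results was not tested, and in bulk RNA fewer cells of a type and less RNA per cell cannot be told apart. Mir221 and Mir222 were listed at 0 in all libraries, WT included, so these poly-A tables do not check the deletion.

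Conditions were compared with limma on log2(FPKM + 1), with genotype and condition as terms, with Benjamini-Hochberg adjustment over 10138 genes and a threshold of 0.05. Each condition then has 2 libraries, 1 of each genotype. Whether these are separate animals is not stated, so p-values measure the spread between these libraries. Values of a gene are given throughout in the order naive, LPS, tolerized, first for WT and then for KO. In this text rose and fell are used only for genes past that threshold. The 50 most abundant rows held 35.2% of FPKM in WT naive cells and 46.8% in WT LPS cells (38.8% and 44.4% in KO). The part of this share in the other values was not tested. The median of all tested genes stood at -0.76 for LPS against naive, at 0.51 for tolerized against LPS and at -0.22 for tolerized against naive. Counts of calls between conditions are given as deposited and again with the libraries rescaled so that the median gene is level between them, which brings these 3 medians to 0.00, -0.01 and 0.01.

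The microRNAs that the KO lacks are shown first, because the KO comparison turns on them. Both mature strands carry the same seed, bases 2 to 8, which pairs with messenger RNA and is in capitals in these sequences, written 5′ to 3′ from RefSeq (GRCm38.p6).
mmu-miR-221-3p: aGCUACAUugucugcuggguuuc
mmu-miR-222-3p: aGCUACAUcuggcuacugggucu
In the longest annotated 3′ UTR (GENCODE M21, GRCm38), a match to that seed was found in 7 of the 52 enzymes (13.5%), against 18.1% of 9810 tested genes. An 8mer has all bases opposite the seed and an A after it, a 7mer-m8 lacks that A, and a 7mer-A1 lacks the base opposite seed position 8. Of the 7, 5 passed the expression minimum, and their sites are in capitals here with the bases beside them.
Hdac9, 8mer: tatttactgccATGTAGCAgaacttatatt
Kdm2a, 7mer-m8: gagttctctttATGTAGCcttggctattc
Setd7, 7mer-A1: gattttgcattTGTAGCAgcgtacaggtc
Tet2, 7mer-m8: tttattttttaATGTAGCttacttcctga
Tet3, 7mer-m8: ccaaggttagcATGTAGCcctggtctatc
The others, Tet1 with a pair of 8mers and Dnmt3b with a 7mer-A1, were under 2 FPKM in every library.

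Most of the enzymes were lower after LPS and a few were higher. As deposited, 4 of the 47 rose from naive to LPS cells (Kdm6b, Kdm4a, Hdac9 and Kdm2b), 32 fell and 11 did not pass the test. Over all genes 8.74% rose and 54.4% fell, and the median difference was -1.02 for the enzymes and -0.76 for all genes. After rescaling 9 rose and 14 fell, against 22.6% and 24.2% of all genes, with a median of -0.32. The 14 that fell in both scalings were Hdac5, Dnmt1, Setd7, Sirt3, Hdac7, Hdac10, Tet3, Sirt4, Kdm5b, Sirt5, Dnmt3a, Hdac8, Kdm5d and Hdac6, and these 14 also fell whichever library was left out. Of the 18 that fell as deposited only, Hdac3, Kat2a, Setd1a and Setd3 had a difference above 0 after rescaling. Kdm1a, Tet2, Hdac1, Sirt1 and Kdm5c rose after rescaling only. Without WT naive, and likewise without WT LPS, 2 of the 4 rises were called.

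**Figure D1:**
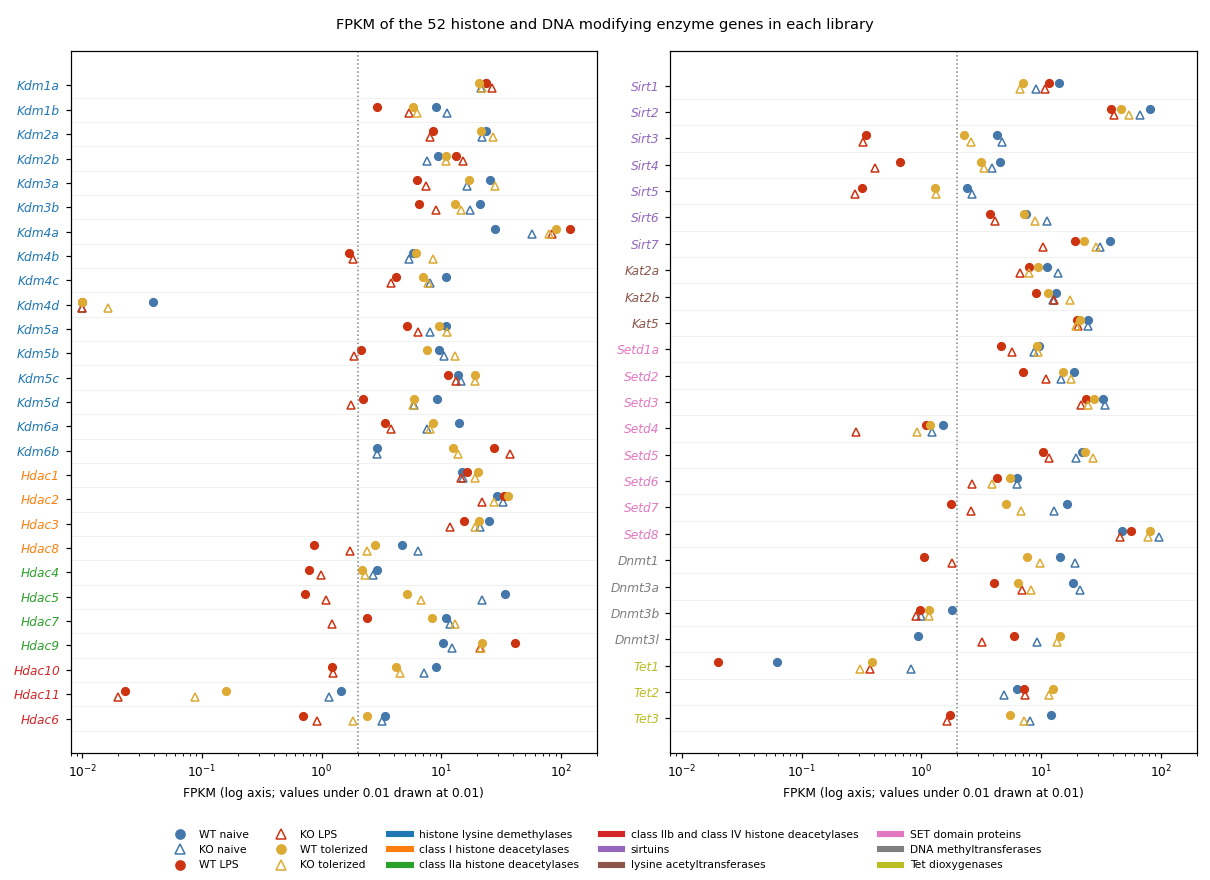
FPKM of the enzymes in the 6 libraries on a log scale, ordered by role, with the dotted line at 2 FPKM. The LPS libraries of both genotypes hold the lowest values for 32 of the 47 tested enzymes, while Kdm6b and Kdm2b have their highest values there.

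In 32 of the 47, both LPS libraries lay below the other 4, which held for 55.4% of tested genes. After rescaling this was 18 of 47 against 25.5%. Both LPS libraries lay above the other 4 for Kdm6b and Kdm2b (2 of 47, 6.35% of tested genes), and for 9 of 47 after rescaling (24.7%). Both naive libraries lay below the other 4 for 5 enzymes (Hdac9, Kdm2b, Kdm4a, Kdm6b and Tet2; 10.0% of tested genes) and above them for 22 (45.9%), or for 9 and 9 after rescaling (26.2% and 25.5%). Both tolerized libraries lay above the other 4 for 6 enzymes (Dnmt3l, Hdac1, Kdm4b, Kdm5c, Setd5 and Tet2; 12.4%) and, after rescaling, again for 6 (9.76%), 4 of them the same (Dnmt3l, Kdm4b, Setd5 and Tet2).

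Tolerized cells held an intermediate level of many enzymes that were low with LPS. From LPS to tolerized cells 26 of the 47 rose, 1 fell (Kdm6b) and 20 did not pass, against 36.8% and 4.32% of all genes, with a median of 0.76 beside 0.51. After rescaling 10 rose (Dnmt1, Hdac5, Hdac7, Hdac10, Kdm2a, Kdm4b, Kdm5b, Sirt3, Sirt4 and Tet3) and 4 fell (Kdm6b, Sirt1, Kdm2b and Kdm1a), against 8.86% and 9.28% of all genes. The number of calls here depended on single libraries more than in the other comparisons. The median difference of the enzymes stayed between 0.61 and 0.79 whichever library was left out. Without KO LPS 1 of 47 rose, Dnmt1, and none fell, where 1.94% and 0.69% of all genes were called. Fewer enzymes, and fewer of all genes, also rose without WT LPS, without KO tolerized or without WT tolerized. Dnmt1 was the sole enzyme called in both scalings and whichever library was left out.

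Between tolerized and naive cells 2 of the 47 rose (Kdm6b and Tet2) and 8 fell (Hdac5, Dnmt3a, Setd7, Dnmt1, Hdac8, Hdac10, Sirt3 and Sirt5). Over all genes 7.41% rose and 19.7% fell, with medians of -0.23 for the enzymes and -0.22 for all genes. After rescaling 3 rose (Hdac9 was added) and 2 fell (Hdac5 and Dnmt3a), against 9.47% and 11.4% of all genes. Kdm6b, Hdac5 and Dnmt3a kept their calls whichever library was left out. The calls of Dnmt1, Hdac8, Hdac10, Sirt3 and Sirt5 were each lost with at least 4 of the 6 libraries left out in turn (adjusted p of 0.0531 to 0.289). Setd7 was lost without WT naive (-0.81, adjusted p = 0.0796) or WT tolerized (-0.99, adjusted p = 0.0953).

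**Figure D2:**
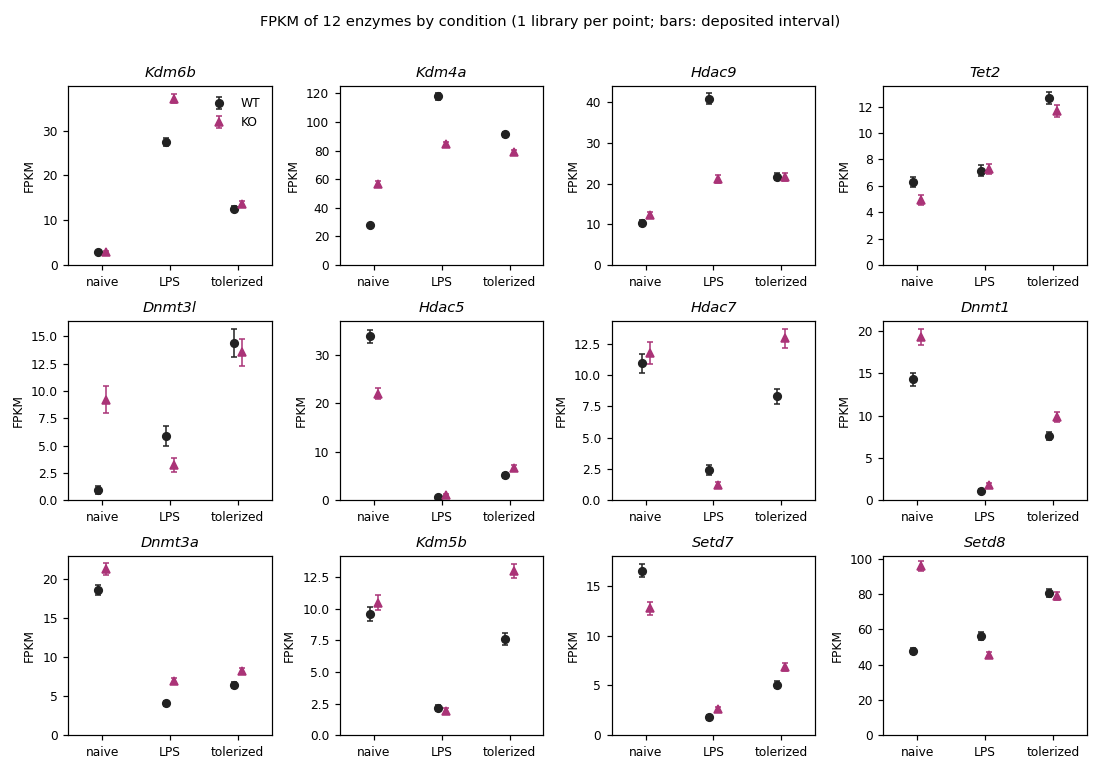
FPKM of 12 enzymes in naive, LPS and tolerized cells of each genotype, each panel with its own linear axis from 0, and bars for the deposited interval of each value. Kdm6b peaks with LPS in both genotypes, Hdac5, Dnmt1 and Setd7 are lowest there, and Dnmt3l and Setd8 run in opposite directions from naive to LPS cells in WT and KO.

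Kdm6b, a JmjC demethylase that removes the methyl mark laid by Polycomb complexes, had the largest rise of all enzymes. It had 2.88, 27.5 and 12.6 FPKM in WT and 2.89, 37.1 and 13.7 FPKM in KO. The naive libraries were the lowest, the LPS libraries the highest and the tolerized libraries between them, with no overlap. With LPS it was 9.55-fold higher in WT and 12.9-fold higher in KO, a fitted log2 difference of 3.08 ± 0.20 (SE; limma, adjusted p = 0.000372). It then fell from LPS to tolerized cells by 1.22 ± 0.20 on the log2 scale (adjusted p = 0.00962), a call that was lost without KO LPS (-1.04, adjusted p = 0.06). Tolerized cells still held 437.1% of the naive level in WT and 472.7% in KO (log2 1.86 ± 0.20, adjusted p = 0.00358).

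Kdm4a, which takes methyl groups from histone H3, was among the most abundant enzymes at 27.9, 118 and 91.5 FPKM in WT and 56.9, 84.3 and 78.6 FPKM in KO. Both naive libraries lay below the other 4, and the LPS and tolerized libraries overlapped. The rise with LPS was 4.23-fold in WT and 1.48-fold in KO (log2 1.30 ± 0.38, adjusted p = 0.0242). It was no longer called without WT naive (0.63, adjusted p = 0.1) or without WT LPS (0.86, adjusted p = 0.16), and it was 1.98 without KO naive. Kdm2b, a subunit that brings a Polycomb complex to unmethylated CpG-rich DNA, was 9.33, 13.3 and 10.9 FPKM in WT and 7.65, 15.1 and 10.98 FPKM in KO. Its rise with LPS (0.69 ± 0.20, adjusted p = 0.0259) was lost without KO naive (0.51, adjusted p = 0.151) or KO LPS (0.54, adjusted p = 0.148), and grew to 1.47 after rescaling.

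Of the 15 tested demethylases 3 rose and 9 fell with LPS, where 8.74% and 54.4% of all genes did (5 and 2 after rescaling, beside 22.6% and 24.2%). From LPS to tolerized cells 10 rose and 1 fell, beside 36.8% and 4.32% of all genes (3 and 3 after rescaling, beside 8.86% and 9.28%). Kdm5b, which demethylates the mark of active promoters, had 9.60, 2.15 and 7.60 FPKM in WT and 10.5, 1.87 and 13.0 FPKM in KO. The LPS libraries were the 2 lowest, and KO tolerized was the highest of all. It fell by 1.88 ± 0.25 on the log2 scale with LPS (adjusted p = 0.00138) and stood 1.87 ± 0.25 higher in tolerized than in LPS cells (adjusted p = 0.00789). That second call was lost without KO LPS (1.60, adjusted p = 0.0516).

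Kdm3a, a demethylase of the repressive mark on histone H3 lysines, was 25.3, 6.30 and 17.0 FPKM in WT and 16.2, 7.498 and 28.1 FPKM in KO. LPS libraries were again the lowest, while naive cells were higher in WT and tolerized cells higher in KO. The fall with LPS was -1.44 ± 0.32 (adjusted p = 0.00924), was -0.90 without WT naive and was not called without WT LPS (-1.35, adjusted p = 0.055) or after rescaling (-0.65, adjusted p = 0.146). From LPS to tolerized cells Kdm3a was 1.54 ± 0.32 higher (adjusted p = 0.0153), and not called after rescaling (0.99, adjusted p = 0.0802) or without WT LPS, KO LPS or KO tolerized (adjusted p = 0.078, 0.0706 and 0.0653). Kdm4b, of the same family as Kdm4a, went the other way from it, at 5.75, 1.70 and 6.14 FPKM in WT and 5.32, 1.82 and 8.51 FPKM in KO. It fell with LPS (-1.24 ± 0.21, adjusted p = 0.00301, but -0.61 and adjusted p = 0.0556 after rescaling) and was 1.58 ± 0.21 higher in tolerized than in LPS cells (adjusted p = 0.00786, and 0.0522 without KO LPS).

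Kdm2a, a relative of Kdm2b, also moved opposite to its relative. It was 23.7, 8.47 and 21.4 FPKM in WT and 21.8, 8.07 and 27.2 FPKM in KO, with the LPS libraries lowest. It fell by 1.36 ± 0.21 on the log2 scale with LPS (adjusted p = 0.00233), or by 0.56 after rescaling (adjusted p = 0.065), and was 1.44 ± 0.21 higher in tolerized than in LPS cells (adjusted p = 0.00806, and 0.0528 without KO LPS). The flavin-dependent demethylases differed too: Kdm1a, found in corepressor complexes, lay between 20.7 and 26.6 FPKM in all libraries, and Kdm1b was 8.96, 2.92 and 5.82 FPKM in WT and 11.2, 5.32 and 6.23 FPKM in KO.

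Several demethylases have copies on the sex chromosomes. Y-linked Kdm5d fell with LPS from 9.17 to 2.22 FPKM in WT cells and, in KO cells, from 5.87 to 1.77 FPKM (-1.48 ± 0.21, adjusted p = 0.00173), and was 5.89 and 5.82 FPKM in tolerized cells. Its X-linked relative Kdm5c held 13.7, 11.3 and 19.2 FPKM in WT and 14.6, 13.2 and 19.1 FPKM in KO, with no call for LPS against naive as deposited (-0.20 ± 0.19, adjusted p = 0.392). Kdm6a, the X-linked relative of Kdm6b, went from 14.0 to 3.39 FPKM in WT cells and, in KO cells, from 7.59 to 3.77 FPKM with LPS, and stood at 8.59 and 7.98 FPKM in tolerized cells. Its fall of 1.31 ± 0.27 on the log2 scale (adjusted p = 0.00627) was opposite to the rise of Kdm6b, although after rescaling it was -0.59 and not called (adjusted p = 0.128). Kdm3b, Kdm4c and Kdm5a, the remaining tested members, lay between 3.79 and 21.2 FPKM, each lowest in an LPS library.

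Class IIa deacetylases, which shuttle between cytoplasm and nucleus and bind MEF2 transcription factors, split in response to LPS. Hdac5 had the largest fall of all enzymes. It had 33.9, 0.72 and 5.12 FPKM in WT and 22.0, 1.09 and 6.70 FPKM in KO, so the naive libraries were highest, the LPS libraries lowest and the tolerized libraries between them. That is 46.8-fold lower with LPS in WT and 20.1-fold lower in KO (log2 -3.90 ± 0.28, adjusted p = 0.000402). Tolerized cells were 1.85 ± 0.28 above LPS cells (adjusted p = 0.00817, and 0.0514 without KO LPS) and held 15.1% of the naive level in WT and 30.5% in KO (-2.04 ± 0.28, adjusted p = 0.00578).

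Hdac7 was 10.9, 2.39 and 8.29 FPKM in WT and 11.8, 1.22 and 12.9 FPKM in KO. The LPS libraries were lowest and the naive and tolerized libraries overlapped. It fell by 2.17 ± 0.30 on the log2 scale with LPS (adjusted p = 0.00159) and was 2.05 ± 0.30 higher in tolerized than in LPS cells (adjusted p = 0.00806, and 1.58 with adjusted p = 0.0514 without KO LPS). Hdac4 lay between 0.78 and 2.88 FPKM and fell with LPS by 1.02 on the log2 scale, or by 0.50 after rescaling (adjusted p = 0.00376 and 0.07).

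Hdac9, of the same class, rose. It was 10.3, 40.8 and 21.7 FPKM in WT and 12.3, 21.2 and 21.6 FPKM in KO. Both naive libraries lay below the other 4, WT LPS stood apart at the top, and KO LPS was level with the tolerized libraries. The rise with LPS was 3.98-fold in WT and 1.72-fold in KO (1.31 ± 0.31, adjusted p = 0.0108), and it was lost without WT naive (0.96, adjusted p = 0.0646) or WT LPS (0.80, adjusted p = 0.0525). Hdac9 was also the one tested enzyme with an 8mer site for the deleted microRNAs, shown above, and its level in KO relative to WT was 0.24 higher in naive cells, -0.92 with LPS and -0.01 in tolerized cells on the log2(FPKM + 1) scale.

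Among class I deacetylases, Hdac1, Hdac2 and Hdac3 are nuclear catalytic subunits of large corepressor complexes. The 4 class I members had a median difference of -0.45 with LPS, against -0.76 over all genes. After rescaling that median was 0.36, against 0.00. Hdac1 lay between 14.7 and 20.3 FPKM, Hdac2 between 21.7 and 35.7 FPKM and Hdac3 between 11.8 and 25.0 FPKM. Hdac1 and Hdac2 did not pass for LPS against naive as deposited (0.04 ± 0.19 and -0.19 ± 0.25), and after rescaling Hdac1 rose by 0.85 (adjusted p = 0.0129). Hdac3 fell as deposited (-0.72 ± 0.20, adjusted p = 0.0186) and had a difference of 0.09 after rescaling. X-linked Hdac8 was 4.73, 0.86 and 2.79 FPKM in WT and 6.38, 1.72 and 2.38 FPKM in KO and fell with LPS in both scalings (-1.53 ± 0.23 and -0.93). None of the 4 passed for tolerized against LPS in either scaling.

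Hdac10, a polyamine deacetylase of class IIb, was 9.01, 1.22 and 4.14 FPKM in WT and 7.15, 1.24 and 4.49 FPKM in KO, with the 3 conditions in separate ranges. It fell by 2.02 ± 0.20 on the log2 scale with LPS (adjusted p = 0.00064) and was 1.25 ± 0.20 higher in tolerized than in LPS cells (adjusted p = 0.00883, but 0.0518 without WT LPS and 0.0544 without KO LPS). X-linked Hdac6, the tubulin deacetylase, was 3.38, 0.70 and 2.397 FPKM in WT and 3.19, 0.92 and 1.84 FPKM in KO. Hdac11, the class IV enzyme, stayed under 2 FPKM and was not tested: it was listed at 1.45, 0.02 and 0.16 FPKM in WT and at 1.15, 0.02 and 0.09 FPKM in KO, with about 1 fragment behind each LPS value.

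Of the 7 sirtuins 6 fell with LPS as deposited, beside 54.4% of all genes, and 3 after rescaling, beside 24.2%, when 1, Sirt1, rose. The 3 that fell in both scalings, Sirt3, Sirt4 and Sirt5, are the mitochondrial ones. Sirt3, the main mitochondrial deacetylase, was 4.30, 0.35 and 2.28 FPKM in WT and 4.68, 0.33 and 2.59 FPKM in KO, in separate ranges by condition (LPS against naive -2.04 ± 0.18, adjusted p = 0.000518). Sirt4 was 4.56, 0.66 and 3.18 FPKM in WT and 3.88, 0.41 and 3.31 FPKM in KO (-1.76 ± 0.19, adjusted p = 0.000739). Sirt5, which removes succinyl and malonyl groups, was 2.39, 0.32 and 1.31 FPKM in WT and 2.63, 0.28 and 1.32 FPKM in KO (-1.44 ± 0.18, adjusted p = 0.00109). Few fragments lay behind the LPS values, an implied 6 and 7 for Sirt3, 15 and 10 for Sirt4 and 7 and 7 for Sirt5 in WT and KO. From LPS to tolerized cells Sirt3 and Sirt4 were 1.36 ± 0.18 and 1.47 ± 0.19 higher (adjusted p = 0.00778 and 0.00774, and 0.0534 and 0.0523 without KO LPS).

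Sirt1, a deacetylase of histones and transcription factors, was 14.2, 11.6 and 7.02 FPKM in WT and 9.16, 10.7 and 6.70 FPKM in KO. It was the one enzyme whose tolerized libraries both lay below the other 4 (3.79% of tested genes, and after rescaling 2 enzymes, Sirt1 and Sirt2, against 10.3%), with -0.62 ± 0.22 for tolerized against LPS (adjusted p = 0.0613), a fall of 1.18 after rescaling (adjusted p = 0.0233). Sirt2, mainly cytoplasmic, was the most abundant sirtuin at 82.0, 38.1 and 46.7 FPKM in WT and 67.2, 40.3 and 54.1 FPKM in KO. Its fall with LPS (-0.90 ± 0.23, adjusted p = 0.0139) was lost without WT naive, WT LPS or KO LPS (adjusted p = 0.0702, 0.0727 and 0.0528) and was -0.06 after rescaling. Sirt6 lay between 3.71 and 11.2 FPKM. Sirt7, found in the nucleolus, was 37.9, 19.3 and 22.7 FPKM in WT and 31.1, 10.3 and 28.6 FPKM in KO. The fall of Sirt7 with LPS (-1.22 ± 0.30, adjusted p = 0.0129) was lost without KO LPS (-0.79, adjusted p = 0.0872) and after rescaling (-0.41, adjusted p = 0.283).

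The 3 acetyltransferases, Kat2a, Kat2b and Kat5, had a median difference of -0.28 with LPS, against -0.76 over all genes, and of 0.54 after rescaling, against 0.00. Kat5, the catalytic subunit of the NuA4 complex, lay between 19.6 and 24.8 FPKM and Kat2a between 6.73 and 13.8 FPKM. Kat2b was 13.3, 9.15 and 11.5 FPKM in WT and 12.6, 12.8 and 17.4 FPKM in KO. With LPS 1 of 3 fell (Kat2a, -0.70 ± 0.22, adjusted p = 0.03), which was lost without WT LPS, KO naive or KO LPS (adjusted p = 0.0644, 0.188 and 0.155) and was 0.08 after rescaling. No acetyltransferase passed in the other comparisons of conditions.

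Among SET domain proteins 6 of 7 fell with LPS as deposited, beside 54.4% of all genes, and after rescaling 1 did, beside 24.2%. It was Setd7, a monomethylase of histone H3 and of many other proteins. Setd7 was 16.5, 1.77 and 5.06 FPKM in WT and 12.7, 2.58 and 6.84 FPKM in KO, with the conditions in separate ranges. It was 9.33-fold lower with LPS in WT and 4.94-fold lower in KO (-2.30 ± 0.25, adjusted p = 0.000776). Tolerized cells were 1.13 ± 0.25 above LPS cells (adjusted p = 0.0168), which was not called after rescaling (0.68, adjusted p = 0.109) or without WT LPS, KO LPS or KO tolerized (adjusted p = 0.0938, 0.0614 and 0.0835), and held 30.6% of the naive level in WT and 53.7% in KO.

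Setd2, which trimethylates histone H3 along transcribed genes, lay between 7.12 and 18.8 FPKM, Setd1a, of the COMPASS family, between 4.60 and 9.57 FPKM, Setd5 between 10.4 and 27.3 FPKM, Setd6 between 2.66 and 6.31 FPKM and Setd3, an actin histidine methyltransferase, between 21.4 and 34.2 FPKM. Each fell with LPS as deposited, by 0.56 to 0.85 on the log2 scale, and had a difference between -0.05 and 0.27 after rescaling. Each of these 5 calls was also lost when at least 2 of the libraries were left out in turn, with adjusted p between 0.0501 and 0.203. Setd8, the monomethylase of histone H4, was the most abundant of them at 47.7, 56.4 and 80.8 FPKM in WT and 95.9, 45.4 and 78.9 FPKM in KO. It passed in no comparison of conditions, and its KO naive value was the highest of all 6. Setd4 stayed under 2 FPKM, between 0.28 and 1.53. The values of Setd6 were 6.31, 4.28 and 5.49 FPKM in WT and 6.27, 2.66 and 3.87 FPKM in KO.

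Of the 3 tested DNA methyltransferases 2 fell with LPS in both scalings, beside 54.4% and 24.2% of all genes. Dnmt1, which copies methylation to new DNA strands, was 14.3, 1.05 and 7.62 FPKM in WT and 19.3, 1.804 and 9.83 FPKM in KO. Naive, tolerized and LPS libraries were in separate ranges in that order. With LPS it was 13.6-fold lower in WT and 10.7-fold lower in KO (-2.88 ± 0.18, adjusted p = 0.000364), and in tolerized cells it was 2.01 ± 0.18 above LPS cells (adjusted p = 0.00691) and held 53.3% of the naive level in WT and 51.0% in KO. A list of 12 proliferation markers, with which Dnmt1 is often expressed, summed to 145, 178 and 153 FPKM in WT and to 139, 151 and 127 FPKM in KO. Of these sums Pcna alone made up 109.8, 151 and 74.9 FPKM in WT and 90.4, 108.7 and 68.5 FPKM in KO. Of 9 of the markers tested, 3 fell with LPS, beside 54.4% of all genes. After rescaling 1 fell and 3 rose, beside 24.2% and 22.6%. From LPS to tolerized cells 7 rose and 1, Pcna, fell, beside 36.8% and 4.32% of all genes. After rescaling 4 rose and 1, again Pcna, fell, beside 8.86% and 9.28%. From naive to tolerized cells 4 rose and 0 fell, beside 7.41% and 19.7% of all genes. After rescaling it was again 4 and 0, beside 9.47% and 11.4%. Dnmt1 itself fell over that step as deposited (-0.87) and was not called after rescaling (-0.63). The part of the proliferation markers in the Dnmt1 values was not tested.

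Dnmt3a, a methyltransferase that sets new methylation, was 18.6, 4.06 and 6.44 FPKM in WT and 21.3, 6.97 and 8.18 FPKM in KO. Naive libraries were highest, and the LPS and tolerized libraries overlapped. It fell by 1.72 ± 0.21 on the log2 scale with LPS (adjusted p = 0.00106) and by 1.34 ± 0.21 from naive to tolerized cells (adjusted p = 0.0079), with no call between tolerized and LPS cells (0.38 ± 0.21, adjusted p = 0.185). In tolerized cells Dnmt3a was at 34.6% of the naive level in WT and 38.4% in KO, where Dnmt1 stood at 53.3% and 51.0%. The difference between these 2 genes was not tested.

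Dnmt3l, a partner of Dnmt3a with no catalytic activity of its own, was 0.94, 5.89 and 14.4 FPKM in WT and 9.21, 3.23 and 13.6 FPKM in KO. The tolerized libraries were the 2 highest, WT naive was the lowest, and KO naive lay above both LPS libraries. It passed in no comparison of conditions (tolerized against naive 1.75 ± 0.68, adjusted p = 0.108), and its SE was the largest among the enzymes. Dnmt3b, the other enzyme that sets new methylation, stayed between 0.91 and 1.81 FPKM and was not tested.

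Tet enzymes split as well. Tet2 was 6.28, 7.16 and 12.7 FPKM in WT and 4.94, 7.27 and 11.7 FPKM in KO, with naive, LPS and tolerized libraries in separate ascending ranges. Tolerized cells were 1.00 ± 0.19 above naive cells (adjusted p = 0.0147), or 1.20 after rescaling (adjusted p = 0.0128), a call that was lost without WT tolerized, KO naive or KO tolerized (adjusted p = 0.0772, 0.065 and 0.0721). For LPS against naive Tet2 was not called as deposited (0.32 ± 0.19, adjusted p = 0.188) and was called after rescaling (1.06, adjusted p = 0.00799). Tet3 was 12.01, 1.72 and 5.52 FPKM in WT and 8.05, 1.62 and 7.22 FPKM in KO and fell by 2.02 ± 0.25 on the log2 scale with LPS (adjusted p = 0.00113). In tolerized cells Tet3 was 1.45 ± 0.25 above LPS cells (adjusted p = 0.01, and 0.0543 without WT LPS and 0.0596 without KO LPS). Tet1 stayed under 2 FPKM, between 0.02 and 0.81, and so did Kdm4d, at 0 in 4 libraries and at most 0.04.

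**Figure D3:**
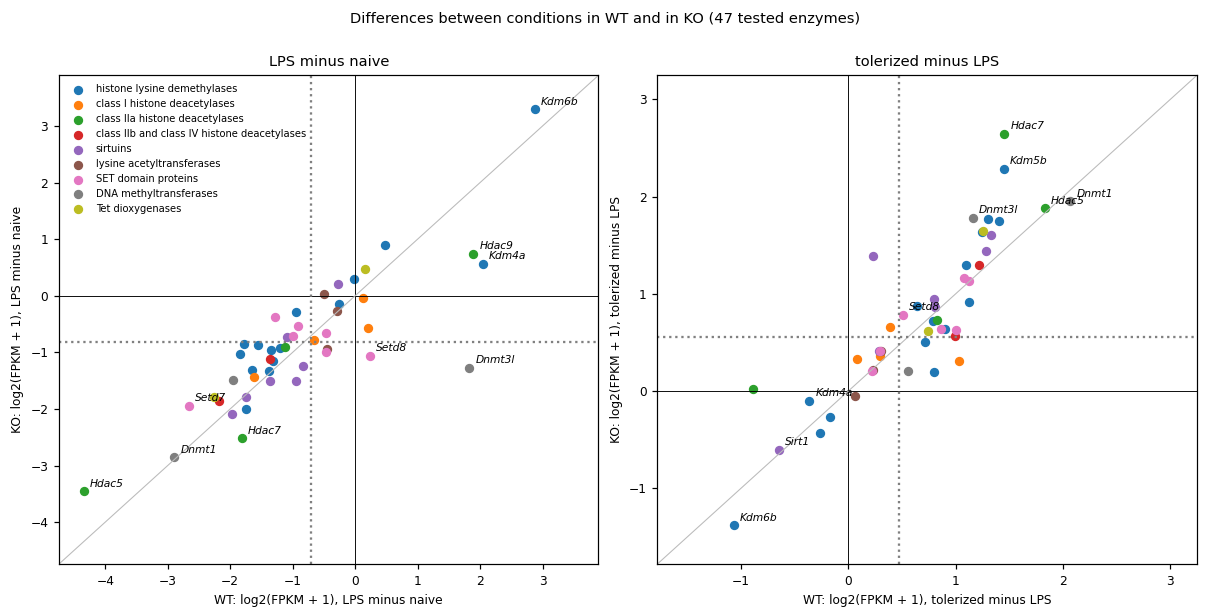
Difference between conditions in KO cells against the same difference in WT cells on the log2(FPKM + 1) scale, for LPS against naive (left) and tolerized against LPS (right), 1 point per tested enzyme, with the grey diagonal for equal differences and dotted lines at the median of all genes. For LPS against naive Kdm6b lies at the top right, Hdac5 and Dnmt1 at the bottom left and Dnmt3l farthest from the diagonal, with naive values of 0.94 FPKM in WT and 9.21 FPKM in KO.

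No enzyme passed the threshold between KO and WT. With 3 libraries of each genotype, 0 of 47 passed in limma in either direction (0.0% of all genes), and at an unadjusted p under 0.05 there was 1, Dnmt1, against 6.96% of all genes. Dnmt1 was 0.40 ± 0.15 higher in KO (unadjusted p = 0.0377, adjusted p = 0.664), and higher in 3 of 3 conditions. The largest fitted differences after Dnmt3l (0.54 ± 0.56) and Dnmt1 were those of Dnmt3a (0.38 ± 0.17), Kdm1b (0.36 ± 0.18) and Setd6 (-0.32 ± 0.17), and the median was 0.03 for the enzymes and -0.06 for all genes. Of the 47, 5 were higher in KO in all 3 conditions (Dnmt1, Dnmt3a, Kdm1b, Kdm6b and Sirt6; 10.8% of tested genes) and 4 were lower (Hdac3, Kdm5d, Setd6 and Sirt1; 18.2%). The smallest adjusted p of any gene was 0.115, so these libraries call no gene for genotype.

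**Figure D4:**
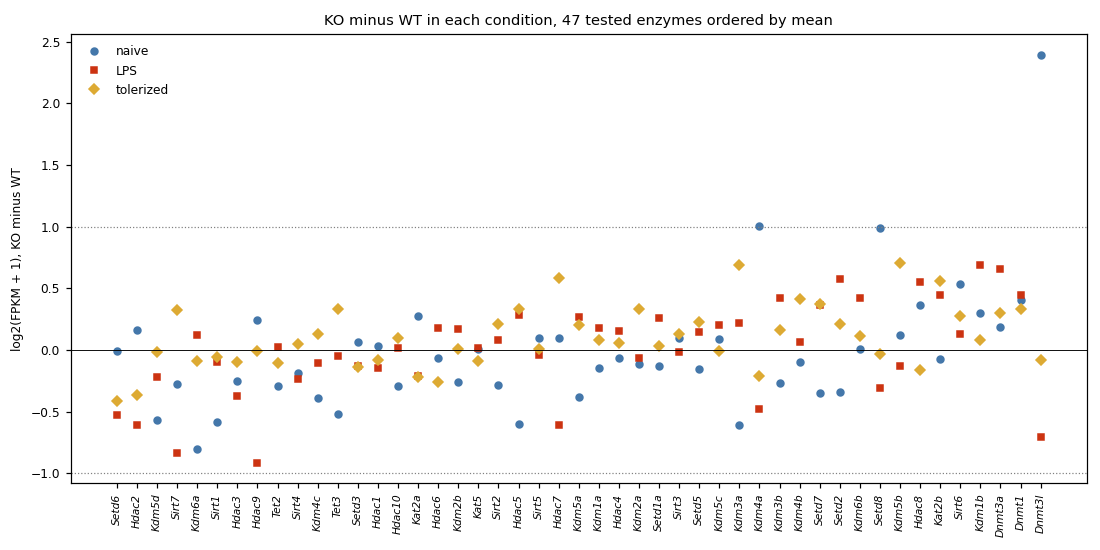
KO minus WT difference of each tested enzyme in naive, LPS and tolerized cells on the log2(FPKM + 1) scale, with dotted lines at a difference of 1 and of -1. Dnmt3l and Kdm4a reach the line in naive cells, no enzyme reaches it with LPS or in tolerized cells, and the points of one enzyme often change sides between conditions.

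Within 1 condition the genotypes are 1 library each, so the differences have no replicate check and no test. A rule of size was used, a difference of at least 1 on the log2(FPKM + 1) scale among enzymes of at least 2 FPKM in either library, which is 2-fold after 1 is added to both values. In naive cells 2 of 47 were higher in KO by this rule and 0 lower, where 3.95% and 3.12% of all genes were. They were Dnmt3l (2.39 on that scale, 9.75-fold by plain FPKM), at 9.21 (deposited interval 8.00 to 10.4) against 0.94 FPKM (0.58 to 1.31), and Kdm4a (1.00, 2.04-fold by plain FPKM), at 56.9 (55.2 to 58.6) against 27.9 FPKM (26.8 to 29.0). Setd8, at 95.9 against 47.7 FPKM, was 2.01-fold higher by plain FPKM and so past 2-fold, but at 0.99 it missed the rule as deposited. It met the rule after rescaling, which made 3 higher and 0 lower, against 3.94% and 2.75% of all genes. Kdm6a (-0.80) and Kdm3a (-0.61) had the next largest differences among naive cells. Kdm6a is the enzyme nearest to the deleted locus: in mm9 it spans chrX:17739793-17856484, 0.87 Mb from Mir221 at chrX:18723420-18723514, and its KO level was 7.59 against 14.0 FPKM in naive, 3.77 against 3.39 FPKM in LPS and 7.98 against 8.59 FPKM in tolerized cells.

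With LPS 0 of 36 enzymes met the rule (4.19% of all genes were higher and 3.05% lower in KO), and after rescaling 0 of 40 (5.53% and 2.58%). Hdac8, at 0.86 FPKM in WT and 1.72 FPKM in KO, was under the minimum as deposited. After rescaling it was at 1.15 and 2.501 FPKM, past 2-fold by plain FPKM but not by the rule. The largest differences were Hdac9 (-0.92, 21.2 against 40.8 FPKM), Sirt7 (-0.84), Dnmt3l (-0.70), Kdm1b (0.69) and Dnmt3a (0.65). In tolerized cells it was again 0 of 46, against 1.81% and 0.774% of all genes, or 1.87% and 0.66% after rescaling. The largest were Kdm5b (0.70, 13.0 against 7.60 FPKM), Kdm3a (0.69), Hdac7 (0.58), Kat2b (0.56) and Setd6 (-0.41). Intervals of the 2 genotypes did not overlap for more enzymes, 9 higher and 19 lower of 47 in naive cells, 14 and 9 of 36 with LPS and 17 and 6 of 46 in tolerized cells, beside 24.8% and 31.3%, 25.3% and 39.7%, and 21.9% and 23.1% of all genes. Those intervals hold counting error and no spread between mice.

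In the 5 tested enzymes with a seed site the median KO minus WT difference was -0.29 in naive, -0.05 in LPS and 0.33 in tolerized cells on the log2(FPKM + 1) scale, and in the 42 without a site it was -0.06, 0.07 and 0.07. Setd7 and Tet3 were lower in KO naive cells (-0.35 and -0.52) and higher in KO tolerized cells (0.37 and 0.34). Kdm2a went from -0.12 to 0.33, and Tet2 stayed between -0.29 and 0.02. A site match is a description and does not show that a site is used.

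For 44 of the 52 a RefSeq promoter of 300 bases (GRCm38.p6) was matched by symbol. The NF-kappaB consensus, on either strand, was in 8 of 44 (18.2%), against 12.3% of 8173 tested genes. The cyclic AMP response element, TGACGTCA on either strand, was in 0 of 44, against 3.7%. The median number of CpG was 22 in both, and the promoters with the fewest were those of Setd5 with 1, Hdac9 with 3 and Dnmt3l and Hdac8 with 6 each.

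Other chromatin genes outside the naming rule were counted the same way. Of 107 tested genes on 6 related lists (other methyltransferases, acetyltransferases and demethylases, corepressor and Polycomb subunits, DNA methylation readers and bromodomain readers), 7 rose and 61 fell with LPS, and 20 and 22 after rescaling, beside 8.74% and 54.4%, and 22.6% and 24.2%, of all genes. From LPS to tolerized cells 54 rose and 3 fell, beside 36.8% and 4.32% of all genes. After rescaling 9 and 6 did, beside 8.86% and 9.28%. From naive to tolerized cells 5 rose and 12 fell, beside 7.41% and 19.7% of all genes. After rescaling 9 and 5 did, beside 9.47% and 11.4%. The exceptions to the fall with LPS included Setdb2, a histone methyltransferase, at 5.07, 16.3 and 4.27 FPKM in WT and 3.70, 33.2 and 5.01 FPKM in KO (2.19 ± 0.33, adjusted p = 0.00202), and Pcgf5, a Polycomb subunit, at 11.7, 51.7 and 13.8 FPKM in WT and 9.07, 74.5 and 17.6 FPKM in KO (2.48 ± 0.26, adjusted p = 0.000731). Both were highest in the LPS libraries, as Kdm6b was, and both fell again from LPS to tolerized cells (-2.11 and -1.93; adjusted p = 0.0518 and 0.0514 without KO LPS). Sap30, a subunit of the Sin3 complex of Hdac1 and Hdac2, was 29.5, 87.1 and 22.4 FPKM in WT and 32.2, 107.4 and 24.3 FPKM in KO and fell from LPS to tolerized cells (-2.01 ± 0.20, adjusted p = 0.00692).

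Some partners of the enzymes were among the genes that fell with LPS. Idh1, which makes the cosubstrate of Tet and JmjC enzymes, went from 209 to 29.4 FPKM in WT cells and, in KO cells, from 142 to 17.8 FPKM (-2.86 ± 0.23, adjusted p = 0.000477). Suv420h2, a histone H4 methyltransferase that acts on the product of Setd8, went from 15.5 to 1.06 FPKM in WT cells and, in KO cells, from 13.1 to 0.58 FPKM (-3.08 ± 0.21, adjusted p = 0.000402). Uhrf1, which brings Dnmt1 to replicating DNA, was 0.64, 0.72 and 3.68 FPKM in WT and 1.00, 0.60 and 3.14 FPKM in KO and rose from LPS to tolerized cells (1.41 ± 0.20, adjusted p = 0.00795, and 0.0583 without KO LPS). Uty, the Y-linked relative of Kdm6a, went from 8.56 to 1.38 FPKM in WT cells and, in KO cells, from 5.71 to 2.37 FPKM with LPS (-1.50 ± 0.28, adjusted p = 0.00454, but -0.85 and 0.0571 after rescaling).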

How the data were processed

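TruSeq libraries of poly-A RNA from peritoneal macrophages were prepared per the labels' protocols, and the series' text names a HiSeq2000. For each library the authors deposited a table of genes with FPKM and the 2 bounds of its interval, per the file headers. The submitters' processing notes name bcl2fastq 1.8.4, TopHat, Cufflinks and mm9. Read counts were not used here.

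Of 23699 rows per table, those not marked OK in a library (349), of symbols listed more than once (712) and of small RNAs (655) were left out, which left 22166. Groups were taken from the sample titles. Values were analysed as log2(FPKM + 1), which understates folds of low genes. The model, genotype plus condition with no interaction term, was fitted with lmFit and eBayes (trend on, two-sided) of limma 3.58.1 under R 4.3.3. It covered the 10138 genes that reached 2 FPKM in 2 or more libraries and had 2 residual and 4.2 prior degrees of freedom. An effect in 1 genotype counts there as spread. Fragment numbers were implied from interval widths, and the fit was tested on simulated data. Rescaling divided each library by the median, over genes, of its ratio to the geometric mean of all libraries. The factors were 1.31 for WT naive, 0.75 for WT LPS, 1.10 for WT tolerized, 1.29 for KO naive, 0.69 for KO LPS and 1.08 for KO tolerized. Alternatives were a pseudocount of 0.1, no filter on low values, rescaling and leaving out each library.

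The enzymes, lists and tests were chosen with earlier results of these data known. By rule, full values were given for the 8 enzymes with the largest difference in each comparison of conditions and for the 5 largest differences between genotypes, overall and in each condition. Of related lists, at most the 2 largest called genes per comparison were named, and 1 gene that this rule selects is not reported here. Other enzymes are given by level, range or call so that each is accounted for. Loci are from the deposited tables, with starts counted from 1.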

Additional observations from a re-analysis of the deposited data

Results flagged for a closer look

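The entries here are enzymes whose level went one way in WT and the other way in KO under the same contrast, with intervals that did not overlap and with opposite signs after rescaling as well. Each difference compares single libraries on the log2(FPKM + 1) scale and was not tested.

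From naive to LPS cells Dnmt3l changed by 1.82 in WT and by -1.27 in KO, and Setd8 by 0.24 in WT and by -1.06 in KO. In both genes KO naive was far above WT naive (9.21 against 0.94 FPKM, and 95.9 against 47.7 FPKM). From naive to tolerized cells Setd8 changed by 0.75 in WT and by -0.28 in KO, and Kdm3a by -0.55 in WT and by 0.75 in KO. Smaller opposite changes over the same step were those of Kdm5b (-0.30 and 0.28), Setd2 (-0.29 and 0.26) and Hdac2 (0.28 and -0.25). After rescaling, Hdac2 in KO was at -0.01, and Setd8 in KO at -0.03.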

How the results depend on the processing

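With a pseudocount of 0.1 the median difference of the enzymes for LPS against naive was -1.20 and 5 enzymes fell from naive to tolerized cells. With no filter on low values that median was -0.88, 14 enzymes rose from LPS to tolerized cells and 3 fell from naive to tolerized cells. After rescaling 9 rose and 14 fell with LPS (median -0.32), 10 rose and 4 fell from LPS to tolerized cells (median 0.24), and 2 fell from naive to tolerized cells (median -0.037). With each library left out in turn, 2 to 4 rose and 24 to 31 fell with LPS (median -1.12 to -0.90). From LPS to tolerized cells 1 to 27 rose and 0 to 2 fell (median 0.61 to 0.79), and from naive to tolerized cells 1 to 3 rose and 2 to 4 fell (median -0.30 to -0.10). From LPS to tolerized cells the share of all genes called varied too. It was lowest without KO LPS, as that of the enzymes was. Where leaving out a library leaves a condition with 1 library, the lone library is assumed to vary like the others. For KO against WT, counting intervals that did not overlap in place of the rule of size gave 9 higher and 19 lower enzymes in naive cells, 14 and 9 with LPS and 17 and 6 in tolerized cells. The shares of all genes were 24.8% and 31.3%, 25.3% and 39.7%, and 21.9% and 23.1%. The Dnmt3l difference between genotypes ranged from -0.39 to 1.16. It was -0.39 without WT naive and also without KO naive, which give the same estimate by construction in this model. By construction the fit with no filter held 16689 genes in place of 10138, and leaving out a library left fewer libraries. Beyond such differences the cause was not tested. The median of the enzymes for KO against WT, 0.03, ranged from -0.007 to 0.089. Among the enzymes that fell with LPS as deposited, Hdac3, Kat2a, Setd1a and Setd3 had a difference above 0 after rescaling. The fit of KO against WT called 0 enzymes under each alternative.

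No paired analysis was possible because each group is 1 library and the labels give no replicate numbers. Depth limits Sirt3, Sirt4 and Sirt5, tested with an implied 6 to 15 fragments behind each LPS value.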

Other observations

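Bromodomain and extra-terminal readers, which bind the acetyl marks that the enzymes above write and erase, did not move as one. Brd2 was 68.1, 98.1 and 88.8 FPKM in WT and 70.6, 159 and 107 FPKM in KO, in the order naive, LPS, tolerized. It rose with LPS (0.84 ± 0.25, limma adjusted p = 0.0271, or 1.69 after rescaling), a call that was lost without KO naive (0.63, adjusted p = 0.117) or KO LPS (0.57, adjusted p = 0.171). Brd3 went from 9.07 to 3.41 FPKM in WT cells and, in KO cells, from 7.17 to 3.11 FPKM with LPS and fell as deposited (-1.09 ± 0.19, adjusted p = 0.00328) but not after rescaling (-0.38, adjusted p = 0.147).

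Several further chromatin genes were lowest with LPS, and Zbtb38, Ncoa2 and Jmjd1c were intermediate in tolerized cells. Nsd1, a histone methyltransferase, was 17.6, 4.04 and 16.3 FPKM in WT and 15.7, 5.29 and 17.8 FPKM in KO, and rose from LPS to tolerized cells (1.68 ± 0.21, adjusted p = 0.00758). Zbtb38, a reader of methylated DNA, was 8.14, 0.48 and 2.86 FPKM in WT and 4.76, 0.79 and 2.76 FPKM in KO, and fell with LPS (-2.16 ± 0.26, adjusted p = 0.00105). Ncoa2, a coactivator, was 16.1, 3.74 and 9.42 FPKM in WT and 11.6, 2.91 and 10.7 FPKM in KO (LPS against naive -1.77 ± 0.22, adjusted p = 0.00119). Jmjd1c, a JmjC protein, was 28.4, 3.81 and 11.5 FPKM in WT and 15.7, 5.97 and 12.9 FPKM in KO (-1.94 ± 0.34, adjusted p = 0.00339). In Nsd1 the tolerized libraries overlapped the naive ones, and in Zbtb38, Ncoa2 and Jmjd1c the 3 conditions lay in separate ranges.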
